A study of Homo sapiens with 6 samples.

Results

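Integrins are the main receptors by which cells hold on to the extracellular matrix, and the 10 genes described here encode 6 alpha chains (ITGA1, ITGA2, ITGA3, ITGA5, ITGA6 and ITGAV) and 4 beta chains (ITGB1, ITGB2, ITGB3 and ITGB5). They were picked by gene symbol from the 36884 genes of the deposited table, no symbol was repeated among them, and all 10 passed the filter on low counts. RNA came from RPE1, an immortalized but not transformed human retinal pigment epithelial line, in which CRISPR-Cas9 had been used to inactivate both LATS1 and LATS2. That background is shared by the 2 groups of 3 libraries each, which differed in the siRNA given 48 h before: control siRNA, or siRNA against MK5, the kinase made from MAPKAPK5. Whether the edited line is a single clone is not given in the sources used here. LATS1 and LATS2 restrain the coactivators YAP and TAZ, so the comparison was made in cells that lack this brake.

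Each integrin is a pair of 1 alpha and 1 beta chain, and the pair decides what the cell can bind. The product of ITGB1 joins many alpha chains into receptors for collagen (with ITGA1 or ITGA2), laminin (with ITGA3 or ITGA6) and fibronectin (with ITGA5). The product of ITGAV joins several beta chains, ITGB3 and ITGB5 among them, into receptors for vitronectin and other ligands with an RGD motif, and ITGB5 has no other partner. ITGB2 is the beta chain of leukocytes and pairs with ITGAL, ITGAM, ITGAX or ITGAD. Inside the cell, talins and kindlins bind the beta tail and switch the receptor on, and adaptors tie it to actin.

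The libraries held between 27188074 and 28236773 counts. MAPKAPK5, the target of the siRNA, was at 35.6, 29.05 and 31.3 CPM (counts on TMM-scaled library totals) in control replicates 1, 2 and 3 and at 17.4, 14.1 and 16.2 CPM with MK5 siRNA (log2 fold change −1.01 ± 0.14, edgeR adjusted p = 0.00169). Every fold change sets MK5 siRNA against control siRNA and is in log2 units, ± a standard error (SE), with n = 3 libraries per group. The SE was derived from the edgeR test, as the absolute log2 fold change over the square root of the F statistic, and is approximate. A gene is called at a Benjamini-Hochberg adjusted p below 0.05. The labels do not say that replicates came from separate cultures, so p-values measure the spread between these libraries, which may be technical. Control replicate 1 stood apart from the other controls in several of the genes below, so values by replicate are given. Of 11 markers of the retinal pigment epithelium, 8 stayed under 1 CPM in every library, RPE65, RLBP1, TYR and TTR among them. MITF lay at 22.4 to 58.7 CPM, OTX2 at 29.6 to 35.9 CPM and PMEL at 0.452 to 2.40 CPM. Of 7 epithelial and mesenchymal markers, EPCAM had no count and CDH1 stayed under 1 CPM. KRT8 and KRT18 fell (log2 fold changes −0.83 ± 0.18 and −0.74 ± 0.13, edgeR adjusted p = 0.0104 and 0.00363), as did 23.7% of all genes tested. These 2 genes share 525 exon bases on opposite strands in GENCODE 29. KRT19, under 1 CPM in every library, did not pass (0.44 ± 0.53, edgeR adjusted p = 0.520), and neither did CDH2 and VIM. The part of these markers in the integrin results was not tested.

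Among the 10 chains, ITGB1, ITGAV and ITGB5 rose, ITGB2 fell, and the other 6 did not pass the test. Over all 13431 genes tested, 46.2% were called, 22.5% rising and 23.7% falling, so a share of 4 in 10 chains lies near the background. Their median log2 fold change was 0.34, beside 0.000306 over all genes tested. The MK5 siRNA libraries lay wholly above the controls for 4 chains (ITGA1, ITGAV, ITGB1 and ITGB5) and wholly below for 2 (ITGA6 and ITGB2), while 30.6% and 29.8% of all genes tested did so. The number of chains that rose was 5 without control replicate 1 and 2 without any one of the MK5 siRNA replicates. Without control replicate 1, 4455 of 13774 genes tested rose, and without MK5 siRNA replicate 1, 2 or 3 it was 2502 of 13773, 2064 of 13677 and 2104 of 13676. With replicates 2 and 3 alone, 6 chains rose and 1 fell, while 5195 of 13690 genes tested rose and 5177 fell.

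**Figure D1:**
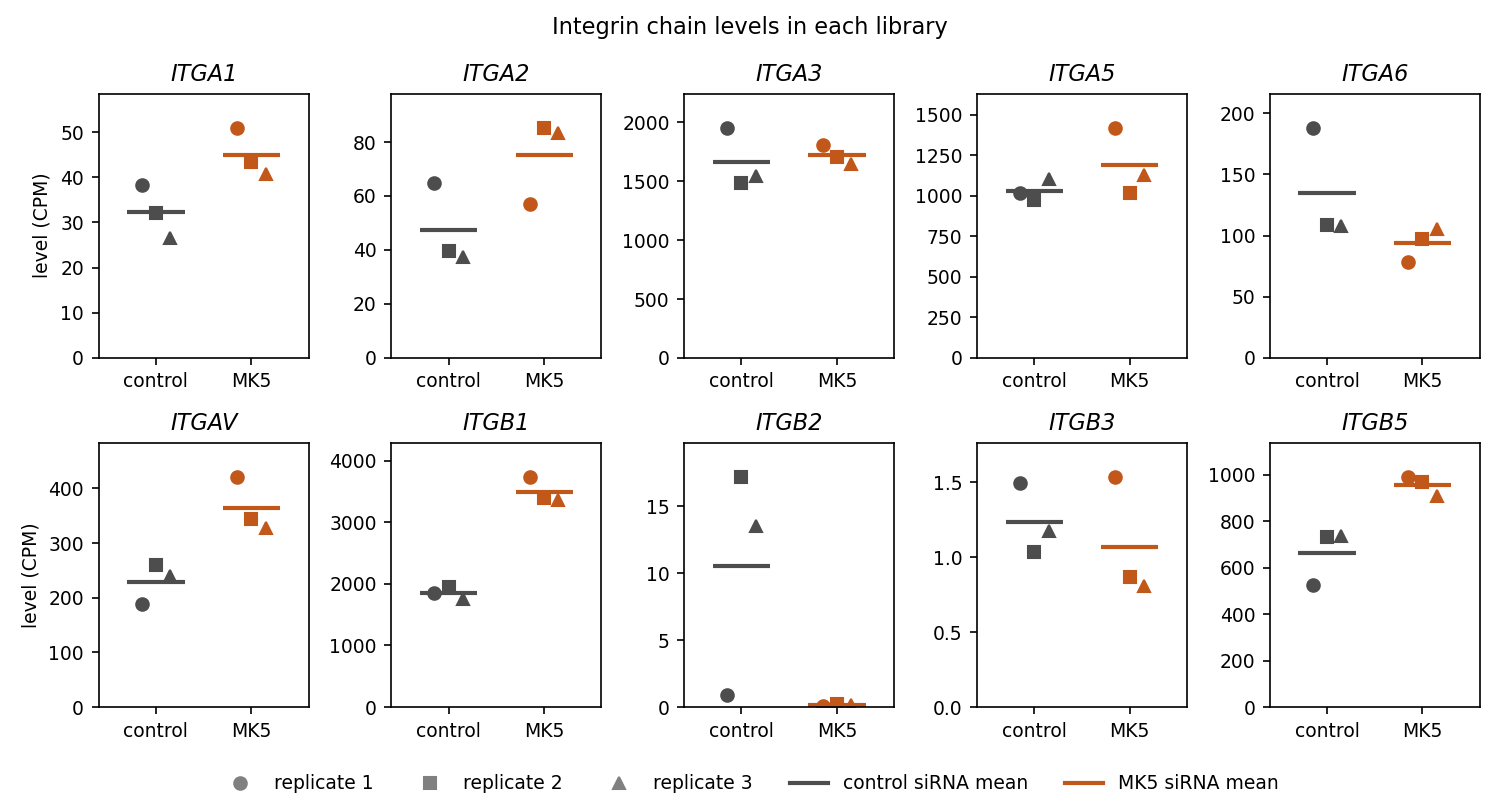
Level of each of the 10 chains in CPM (vertical axis, from 0, its own scale in each panel) by siRNA group, with 1 point per library shaped by replicate and a bar at the mean of 3. ITGB1 lies at 1748 to 1956 CPM in the controls and at 3357 to 3731 CPM after MK5 siRNA, and ITGB2 is near 0 in control replicate 1 and in all MK5 siRNA libraries.

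ITGB1 (ENSG00000150093), the most widely used beta chain, had the largest rise of the 10. It was at 1851, 1956 and 1748 CPM in control replicates 1, 2 and 3 and reached 3731, 3399 and 3357 CPM after MK5 siRNA, in the same order. The groups were far apart and each was tight. The mean went from 1852 ± 104 to 3495 ± 205 CPM (SD, n = 3), a rise of 1.89-fold (log2 fold change 0.92 ± 0.11, edgeR adjusted p = 0.000938). Changes within replicate pairs 1, 2 and 3, as differences of log2(CPM + 0.5), were 1.01, 0.80 and 0.94. Pairs here and below are libraries with the same replicate number. The labels do not say that such libraries belong together, and the main test did not pair them.

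ITGB5 (ENSG00000082781), the beta chain of a vitronectin receptor, was also higher in each MK5 siRNA library than in any control. Its levels were 527, 734 and 736 CPM in the controls and 990.5, 970.4 and 910 CPM after MK5 siRNA. The mean went from 666 ± 120.3 to 957 ± 42.0 CPM (log2 fold change 0.52 ± 0.15, edgeR adjusted p = 0.0272). Control replicate 1 was the lowest of the controls, and the pair changes were 0.91, 0.40 and 0.31. The call was lost without MK5 siRNA replicate 1, 2 or 3 (edgeR adjusted p = 0.0752, 0.0838 and 0.0649), with log2 fold changes of 0.50, 0.52 and 0.56.

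ITGB2 (ENSG00000160255), the leukocyte beta chain, was the single chain that fell. It had 23, 466 and 369 counts in control replicates 1, 2 and 3 and 2, 6 and 5 counts in the MK5 siRNA libraries. Control replicate 1 was thus close to the treated libraries, although it still lay above them. In CPM the controls were at 0.881, 17.2 and 13.5 and the MK5 siRNA libraries at 0.0730, 0.209 and 0.168. The fitted log2 fold change was −6.08 ± 1.18 (edgeR adjusted p = 0.00611), which rests on 13 counts in all on the MK5 siRNA side. The gene passed the low-count filter through its control libraries alone. On log2(CPM + 0.5) the pair changes were −1.27, −4.64 and −4.39, and limma gave −3.43 with a pseudocount of 0.5 and −2.14 with 2.

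ITGB3 (ENSG00000259207), which pairs with ITGAV and, in platelets, with ITGA2B, was scarcely counted. It lay at 1.49, 1.03 and 1.17 CPM in the controls and at 1.53, 0.869 and 0.808 CPM after MK5 siRNA. The groups overlapped, and replicate 1 was the highest library in both (log2 fold change −0.21 ± 0.34, edgeR adjusted p = 0.644). With 1 library left out the value ran from −0.55, without MK5 siRNA replicate 1, to −0.033, without MK5 siRNA replicate 3, and it did not pass in any of these fits. In GENCODE 29, 51.6% of its exon bases also belong to a second gene on the same strand, so reads there could have been left out or given to that gene.

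ITGAV (ENSG00000138448), the alpha chain that ITGB5 depends on, was the alpha chain that rose. Levels were 188, 259 and 240.3 CPM in the controls and 420.4, 344 and 327 CPM in the MK5 siRNA libraries. The lowest control and the highest treated library were both replicate 1. The mean went from 229 ± 37.1 to 364 ± 49.8 CPM (log2 fold change 0.67 ± 0.16, edgeR adjusted p = 0.0140). The pair changes were 1.16, 0.41 and 0.44, and the gene passed in each fit that left out 1 library.

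The upstream sequence of ITGB1 and of ITGAV is shown because both chains rose. ITGB5, which also rose, has 3 RefSeq entries with no clear main start and is not shown. RefSeq (GRCh38.p14) had an entry for 7 of the 10 chains, and where a gene had several, the one with most GENCODE 29 coding transcript starts nearby was taken. Each window is the 250 bases before the start, on the gene's strand. The ITGB1 window is chr10:32958231-32958480 on the minus strand and the ITGAV window is chr2:186589806-186590055 on the plus strand. Capitals mark the words searched, on both strands: CATTCC (TEAD factors), TGANTCA (AP-1), GGGCGG (Sp1) and CCAAT (NF-Y), none overlapping another here.
ITGB1: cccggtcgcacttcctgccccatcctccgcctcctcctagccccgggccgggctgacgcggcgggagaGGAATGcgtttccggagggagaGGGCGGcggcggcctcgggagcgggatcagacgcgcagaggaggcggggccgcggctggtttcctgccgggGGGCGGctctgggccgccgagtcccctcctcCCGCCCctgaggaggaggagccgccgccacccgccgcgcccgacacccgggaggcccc
ITGAV: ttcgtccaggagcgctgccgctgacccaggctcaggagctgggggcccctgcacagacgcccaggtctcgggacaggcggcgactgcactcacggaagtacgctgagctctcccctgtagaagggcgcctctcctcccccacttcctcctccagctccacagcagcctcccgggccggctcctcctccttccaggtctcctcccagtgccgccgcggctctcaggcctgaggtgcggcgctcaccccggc
The ITGB1 window held 1 TEAD word, in its reverse complement, 182 bases before the start, and 3 Sp1 words, at 160, 89 and 58 bases. The ITGAV window held none of the 4 words, which says only that these letters are not in this stretch. Of 35116 windows of the same length over all RefSeq entries, 11.9% held the TEAD word, 6.57% the AP-1 word, 42.6% the Sp1 word and 32.0% the NF-Y word. Among the other 5 chains with an entry, the Sp1 word occurred 4 times in ITGA2, 2 times in ITGB5 and 1 time in ITGA5, and the TEAD word 1 time, in ITGA5. No GENCODE 29 coding transcript starts within 100 bases of the ITGA5 entry.

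The collagen receptor chains ITGA1 and ITGA2 had higher means after MK5 siRNA but did not pass. ITGA1 (ENSG00000213949) was at 38.4, 32.1 and 26.6 CPM in the controls and at 50.9, 43.4 and 40.7 CPM after MK5 siRNA. Its groups did not overlap (log2 fold change 0.48 ± 0.17, edgeR adjusted p = 0.0513). With the replicate number as a block it passed (0.49, edgeR adjusted p = 0.0205), and it also passed without control replicate 1 (0.62, edgeR adjusted p = 0.00338). It shares exon bases with PELO, a gene on the same strand, and PELO rose (0.70 ± 0.20, edgeR adjusted p = 0.0266). Reads from this small shared stretch could have been left out or given to either gene.

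ITGA2 (ENSG00000164171) was at 64.9, 39.7 and 37.5 CPM in the controls and at 56.8, 85.2 and 83.5 CPM after MK5 siRNA. Replicate 1 ran against the others, as it was the highest control and the lowest treated library, so that the groups overlapped. The pair changes were −0.19, 1.09 and 1.14. The log2 fold change was 0.67 ± 0.26 (edgeR adjusted p = 0.0710) with all libraries and 0.97 without control replicate 1 (edgeR adjusted p = 0.00186). With replicates 2 and 3 alone it was 1.13 (edgeR adjusted p = 1.09e-11). That fit leaves out the replicate that ran against the others, and it called 10372 of 13690 genes tested, so its p-value does not make the rise of ITGA2 firm.

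The laminin receptor chains ITGA3 and ITGA6 did not pass either. ITGA3 (ENSG00000005884) was at 1953, 1484 and 1542 CPM in the controls and at 1809.9, 1702 and 1649 CPM after MK5 siRNA. The groups overlapped and the means were close (log2 fold change 0.052 ± 0.14, edgeR adjusted p = 0.775). ITGA6 (ENSG00000091409) was at 188, 109 and 107 CPM in the controls and at 78.7, 97.1 and 105 CPM after MK5 siRNA. Its groups did not overlap, though the highest treated library came close to the lowest control (log2 fold change −0.52 ± 0.24, edgeR adjusted p = 0.118). Most of that difference lay in replicate 1, with pair changes of −1.25, −0.16 and −0.03, and without control replicate 1 the log2 fold change was −0.20. ITGA5 (ENSG00000161638), the fibronectin receptor chain, was at 1020.4, 975 and 1101 CPM in the controls and at 1419, 1019.9 and 1128 CPM after MK5 siRNA. Its groups overlapped, with treated replicate 1 the highest library (log2 fold change 0.20 ± 0.15, edgeR adjusted p = 0.286). Without that library it was 0.060.

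**Figure D2:**
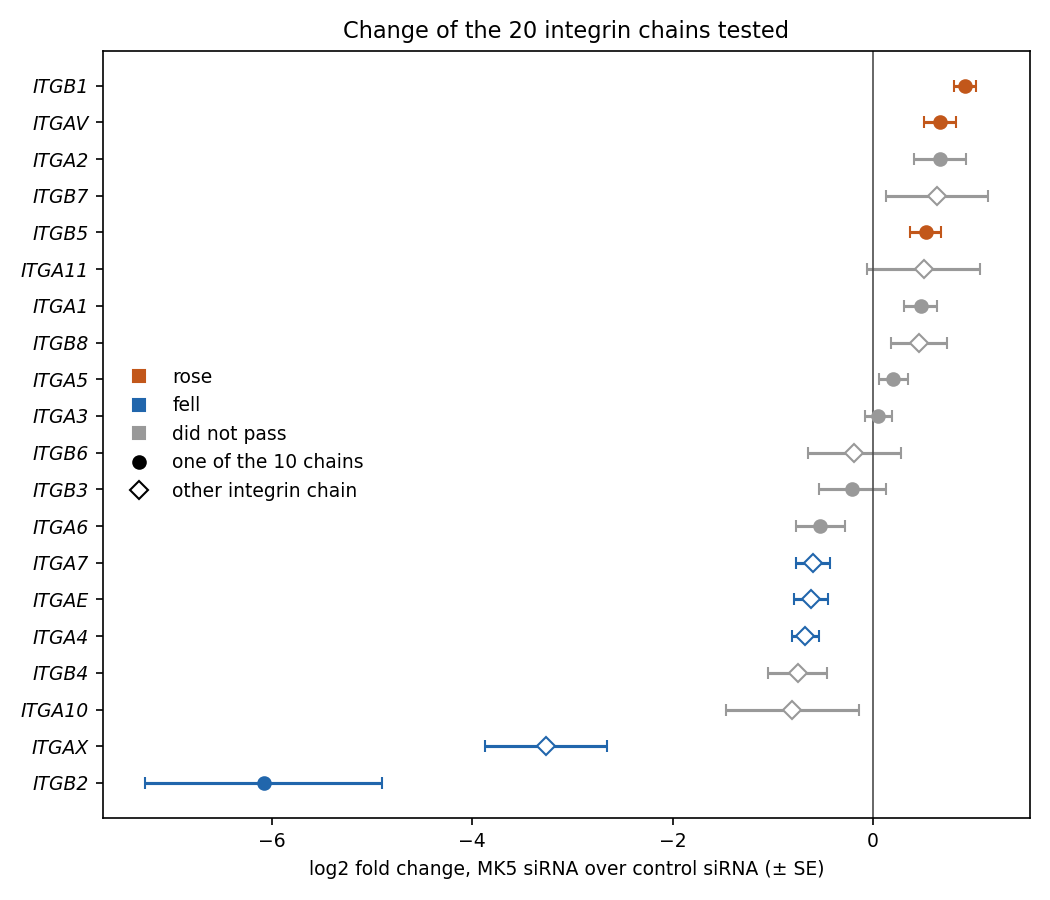
Log2 fold change of MK5 siRNA over control siRNA (horizontal axis, ± SE derived from edgeR's test) for the 20 integrin chains that passed the low-count filter, ordered by size, with filled circles for the 10 chains and open diamonds for the others. ITGB1 leads at 0.92 and ITGB2 closes at −6.08, next to ITGAX at −3.26.

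To compare chains with each other, CPM was divided by the length of each gene's longest coding transcript in GENCODE 29. On this scale of CPM per kb, ITGB1 was the most abundant of all 26 integrin chains in the controls, at 489 ± 27.5, followed by ITGA3 at 340 ± 52.3, ITGA5 at 232 ± 14.3 and ITGB5 at 152 ± 27.5. The control libraries of these 4 did not overlap with those of the next chain in order. ITGA7, not one of the 10, came next at 59.2 ± 2.30 CPM per kb, ahead of ITGAV at 32.6 ± 5.27, which overlapped with ITGA6 at 24.0 ± 8.20. ITGA2 lay at 6.02 ± 1.94, ITGB2 at 3.31 ± 2.69, ITGA1 at 3.01 ± 0.550 and ITGB3 at 0.308 ± 0.0594 CPM per kb, and ITGB2 and ITGA1 overlapped. The first 4 places were the same after MK5 siRNA and when the length of all annotated exons was used. ITGB2 moved from place 13 of 26 to place 20.

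Summed over all 8 beta chains, the level per kb was 615, 698 and 642 CPM per kb in the controls and 1221, 1129 and 1103 CPM per kb after MK5 siRNA. Every treated library thus lay far above every control. Summed over all 18 alpha chains it was 792, 705 and 743 CPM per kb in the controls and 876, 743 and 747 CPM per kb after MK5 siRNA, and these ranges overlapped. ITGB1 made up 75.2% ± 3.95 of the beta sum in the controls and 80.3% ± 0.625 after MK5 siRNA, and ITGB5 23.3% ± 3.38 and 19.0% ± 0.568. For both shares the groups overlapped, since control replicate 1, with ITGB1 at 79.6% and ITGB5 at 19.6%, lay among the MK5 siRNA libraries. ITGB1 over the sum of the 12 alpha chains it can pair with was 0.665 ± 0.0671 in the controls and 1.18 ± 0.0434 after MK5 siRNA. These are sums of transcripts, and the amounts of protein at the surface were not measured.

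**Figure D3:**
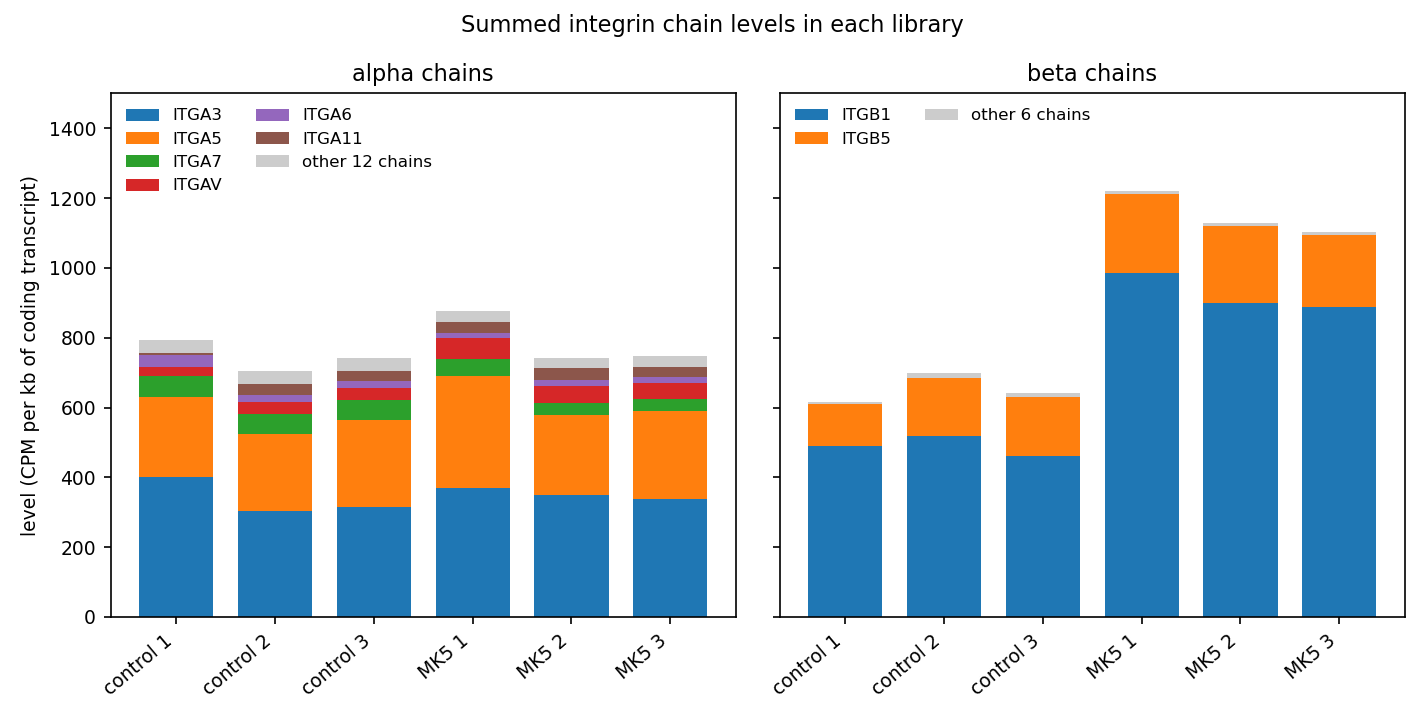
Stacked levels of alpha chains (left) and beta chains (right) in each library, in CPM per kb of coding transcript, on axes from 0. The beta sum reaches 1103 to 1221 in the MK5 siRNA libraries against 615 to 698 in the controls, while the alpha sums of the groups overlap.

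Of the other 16 integrin chains, 10 passed the low-count filter, 4 of them fell, none rose and 6 did not pass, with a median log2 fold change of −0.61. Of all genes tested, 23.7% fell and 22.5% rose. ITGAX passed the filter through its control libraries alone. ITGA4, which binds fibronectin and VCAM1, was at 73.8, 86.2 and 87.7 CPM in the controls and at 60.3, 46.7 and 48.2 CPM after MK5 siRNA (−0.67 ± 0.14, edgeR adjusted p = 0.00767). ITGA7, a laminin receptor chain, went from 244 ± 9.47 to 161 ± 37.9 CPM (−0.60 ± 0.17, edgeR adjusted p = 0.0253). The epithelial T cell chain ITGAE went from 26.7 ± 3.98 to 17.4 ± 2.76 CPM (−0.62 ± 0.17, edgeR adjusted p = 0.0239). All 3 had groups that did not overlap. ITGA7 was not called without control replicate 3 or MK5 siRNA replicate 2 or 3 (edgeR adjusted p = 0.0545, 0.101 and 0.0905). ITGAE was not called with the replicate block (edgeR adjusted p = 0.0590), nor without control replicate 2 or 3 or MK5 siRNA replicate 2 or 3 (edgeR adjusted p = 0.0596, 0.0669, 0.0982 and 0.0937). The number that fell was 2 without control replicate 3 or without MK5 siRNA replicate 2 or 3.

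The 6 that did not pass were ITGA10, ITGA11, ITGB4, ITGB6, ITGB7 and ITGB8. The collagen receptor chain ITGA11 was at 53.5 CPM in control replicate 1 and between 281 and 336 CPM in the other 5 libraries (0.51 ± 0.56, edgeR adjusted p = 0.491), and its log2 fold change was 0.048 without that library. ITGA10, another collagen receptor chain, was at 0.575, 5.01 and 4.28 CPM in the controls and at 1.61, 2.23 and 1.82 CPM after MK5 siRNA (−0.80 ± 0.67, edgeR adjusted p = 0.354), and passed without control replicate 1 (−1.29, edgeR adjusted p = 0.000928), while the value was −0.37 without control replicate 2 (edgeR adjusted p = 0.709). ITGB8, a partner of ITGAV, was at 24.9, 56.2 and 49.2 CPM in the controls and at 56.1, 63.9 and 59.1 CPM after MK5 siRNA (0.46 ± 0.28, edgeR adjusted p = 0.219). Leaving out control replicate 1, the lowest library, gave 0.19, and ITGB8 passed with replicates 2 and 3 alone (0.23, edgeR adjusted p = 0.0101). ITGB4, the partner of ITGA6 in hemidesmosomes, was at 7.55, 6.82 and 6.77 CPM in the controls and at 5.80, 4.17 and 2.59 CPM after MK5 siRNA, with no overlap (−0.75 ± 0.29, edgeR adjusted p = 0.0749), and passed without MK5 siRNA replicate 1 (−1.06, edgeR adjusted p = 0.0292) and in DESeq2 (adjusted p = 0.0388). ITGB6 and ITGB7 stayed near 1 CPM or below, with log2 fold changes of −0.19 ± 0.46 and 0.64 ± 0.51 (edgeR adjusted p = 0.763 and 0.335).

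ITGAX, a leukocyte alpha chain and a partner of ITGB2, had the other large fall among the chains. It had 58, 193 and 147 counts in control replicates 1, 2 and 3 and 5, 15 and 24 counts after MK5 siRNA (log2 fold change −3.26 ± 0.61, edgeR adjusted p = 0.00517). As with ITGB2, control replicate 1 was the lowest control and still above the treated libraries. The other partners ITGAL, ITGAM and ITGAD reached at most 3, 1 and 11 counts in any library. ITGB2-AS1, a noncoding gene on the opposite strand that shares 303 exon bases with ITGB2 in GENCODE 29, had 4, 129 and 139 counts in the controls and 0, 0 and 4 counts after MK5 siRNA. The strand setting of the counting is not given, so reads from the shared bases cannot be assigned to either gene. ITGB2-AS1 was chosen after its values were seen.

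Other leukocyte markers were looked at beside ITGB2. Of 15 markers, ITGAL, ITGAM and ITGAX included, 12 stayed under 1 CPM in every library and were not tested, and TYROBP had no count. PTPRC, the pan-leukocyte antigen CD45, had between 1 and 8 counts in each library. The 3 that were tested fell: ITGAX, CORO1A, an actin-binding coronin (−3.17 ± 0.35, edgeR adjusted p = 0.000803), and LAPTM5, a lysosomal protein (−4.70 ± 0.83, edgeR adjusted p = 0.00418). Over all genes tested, 23.7% fell. CORO1A had 112, 205 and 216 counts in the controls and 14, 21 and 28 after MK5 siRNA, and LAPTM5 had 20, 81 and 79, then 0, 4 and 3. The summed level of the 15 markers lay between 7.62 and 18.1 CPM in the controls and between 1.31 and 2.42 CPM after MK5 siRNA. Most of that sum came from CORO1A, ITGAX and LAPTM5, with control means of 6.58, 4.90 and 2.21 CPM, so it does not describe the other 12 markers. ITGAX and LAPTM5 passed the low-count filter through their control libraries alone, as ITGB2 did, so the filter itself favoured a fall in them. CORO1A passed it in both groups. Among the markers not tested, CD14 had 3, 0 and 0 counts in the controls and 9, 5 and 7 after MK5 siRNA, and PTPRC (13 and 14 counts in all), SPI1 (0 and 3) and CD68 (1 and 2) were not lower after MK5 siRNA. The 3 tested markers moved with ITGB2, and their part in its fall was not tested. In bulk RNA, fewer cells with a transcript and less transcript per cell cannot be told apart.

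**Figure D4:**
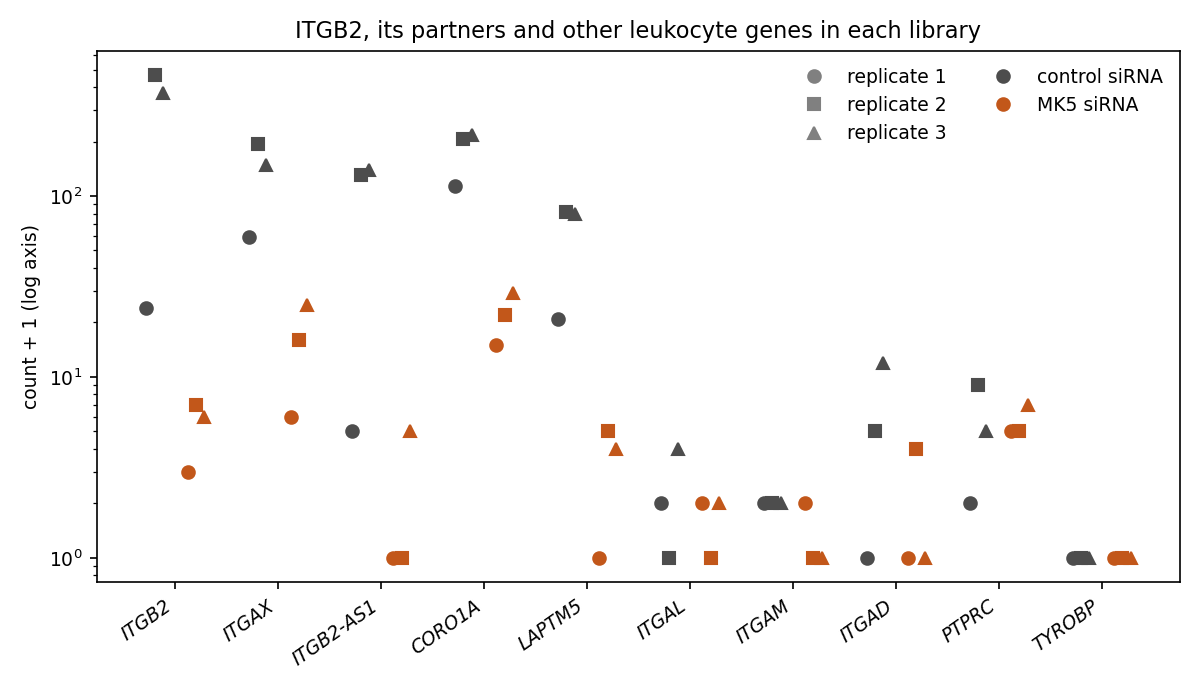
Counts plus 1 on a log axis for ITGB2, its partner chains, the overlapping ITGB2-AS1 and leukocyte markers, with 1 point per library shaped by replicate and coloured by siRNA. In the first 5 genes control replicates 2 and 3 are highest and control replicate 1 lies between them and the MK5 siRNA libraries or, in ITGB2-AS1, level with 1 of them.

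Proteins that bind integrin tails or switch integrins on were given as a list of 20 genes, of which 18 were tested, 5 fell and none rose, with a median log2 fold change of −0.01. With 23.7% of all genes tested falling and 22.5% rising, the share that fell lies near the background. TLN2, 1 of the 2 talins, was at 76.05, 67.9 and 65.3 CPM in the controls and at 15.7, 17.6 and 19.5 CPM after MK5 siRNA (−1.99 ± 0.13, edgeR adjusted p = 0.000209). TLN1, the more abundant talin, went from 1352 ± 118 to 998 ± 119 CPM (−0.44 ± 0.13, edgeR adjusted p = 0.0285). The kindlin gene FERMT2 fell from 104 ± 37.2 to 44.6 ± 8.05 CPM (−1.22 ± 0.26, edgeR adjusted p = 0.00923). ACTN1 and FLNA, which link integrin tails to actin filaments, fell, with log2 fold changes of −0.93 ± 0.12 and −0.80 ± 0.14 (edgeR adjusted p = 0.00129 and 0.00440). The parvin PARVA and the adaptor LIMS1 did not pass, with log2 fold changes of 0.10 ± 0.11 and 0.54 ± 0.23. ILK, the kinase-like scaffold of that complex, was at 0.839 to 2.23 CPM, and 68.1% of its exon bases overlap TAF10 on the opposite strand in GENCODE 29, so its level is uncertain. With the replicate block 2 of these genes rose, against 4 when control replicate 1 was left out and 1 when MK5 siRNA replicate 1 was.

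Integrin ligands moved in both directions. Of 28 ligands, 24 were tested, 7 rose and 3 fell, with a median log2 fold change of −0.02. Over all genes tested 22.5% rose, 23.7% fell and 46.2% were called, so 10 of 24 lies near the background. LTBP1, which holds latent TGF-beta in the matrix, was at 7.05, 13.0 and 15.4 CPM in the controls and at 141, 162 and 149.7 CPM after MK5 siRNA (3.67 ± 0.29, edgeR adjusted p = 0.000276). The collagen chain COL1A1 rose from 53.5 ± 14.0 to 190 ± 90.4 CPM (1.83 ± 0.35, edgeR adjusted p = 0.00605), by 1.37 without MK5 siRNA replicate 1 and by 1.19 with replicates 2 and 3 alone. COL4A1, COL4A2, SPP1, FBN1 and ICAM1 were the other ligands that rose, and ICAM1, with 5, 9 and 7 counts in the controls and 29, 20 and 15 after MK5 siRNA, passed the low-count filter through its MK5 siRNA libraries alone. CYR61 and CTGF, matricellular proteins that bind integrins, fell, with log2 fold changes of −2.44 ± 0.41 and −2.20 ± 0.62 (edgeR adjusted p = 0.00358 and 0.0245), and the laminin chain LAMB3 fell as well. CTGF fell by 1.18 without control replicate 1 and was not called without MK5 siRNA replicate 2 or 3 (edgeR adjusted p = 0.0872 and 0.0864). FN1, fibronectin itself, was at 3367, 3519 and 3088 CPM in the controls and at 4582, 3607 and 3223 CPM after MK5 siRNA and did not pass (0.19 ± 0.15, edgeR adjusted p = 0.333). VTN, vitronectin, had no count. The number of ligands that fell was 5 with the replicate block and 6 without control replicate 1. Over all genes tested, 3205 of 13431 and 4419 of 13774 fell there.

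Membrane partners of integrins and genes of their endocytic traffic made up a list of 18, with 17 tested, 3 rising and 7 falling and a median log2 fold change of −0.26. The shares over all genes tested were 22.5% rising and 23.7% falling. SLC3A2, the CD98 heavy chain that binds beta tails, rose from 183 ± 22.7 to 391 ± 4.04 CPM (1.10 ± 0.12, edgeR adjusted p = 0.000720). BSG, basigin, and the early endosome GTPase RAB5A rose as well, RAB5A by 0.70 ± 0.16 (edgeR adjusted p = 0.0107). DAB2, a clathrin adaptor that takes up integrins, fell from 198 ± 18.7 to 76.4 ± 3.33 CPM (−1.37 ± 0.11, edgeR adjusted p = 0.000313). The recycling GTPases RAB4A (−0.95 ± 0.23) and RAB11A (−0.66 ± 0.11) fell (edgeR adjusted p = 0.0146 and 0.00287). The GTPases ARF6 and RAB21 were not called, at −0.26 ± 0.20 and 0.31 ± 0.28, while RAB25 was not tested. The tetraspanins CD82, CD151 and TSPAN4 and the integrin-associated CD47 fell as well. RAB4A shares 19.6% of its exon bases with SPHAR on the same strand, and it was not called without MK5 siRNA replicate 2 or 3 (edgeR adjusted p = 0.0535 and 0.0620). Of this list, 3 fell without control replicate 3 or MK5 siRNA replicate 1 and 2 fell without MK5 siRNA replicate 2 or 3, while 4 fell on library totals alone or with no filter on low counts. Without control replicate 1, 6 rose, beside 4455 of 13774 over all genes tested.

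**Figure D5:**
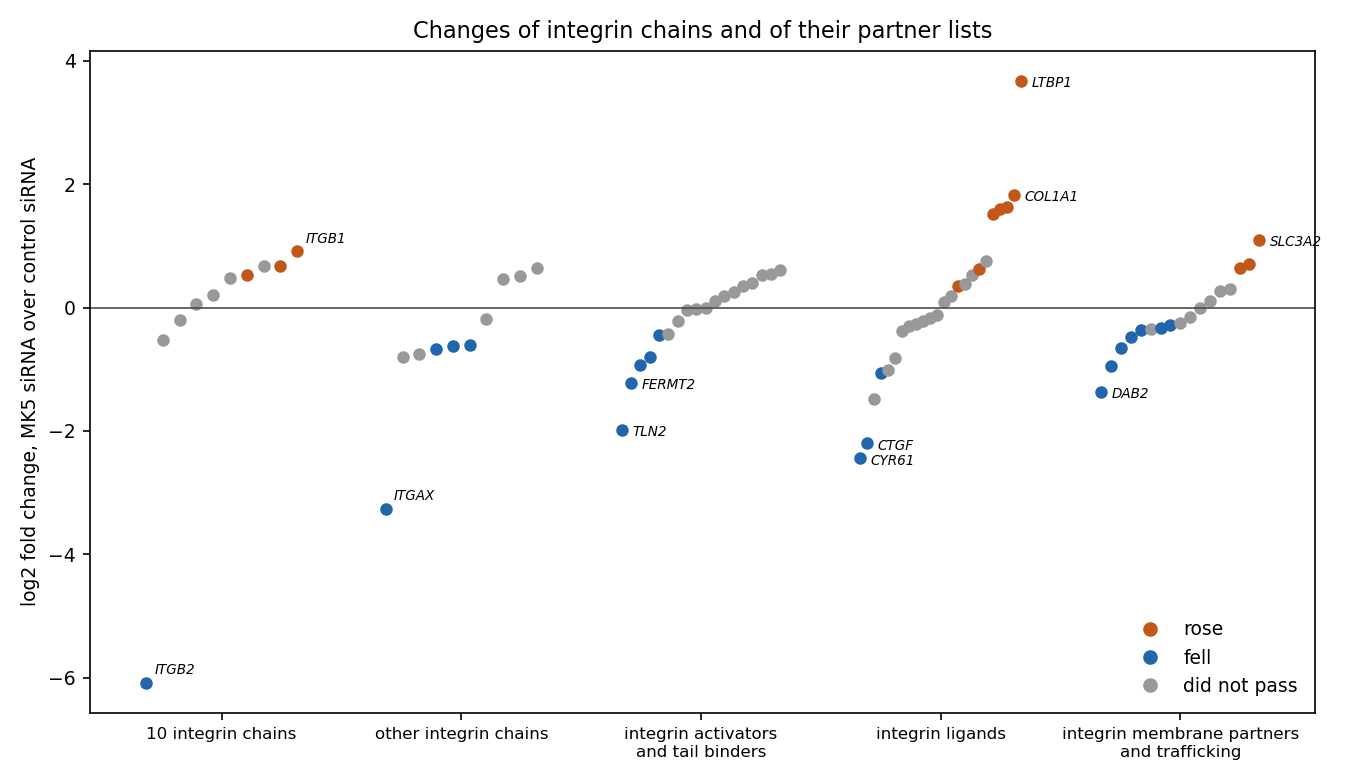
Log2 fold change of MK5 siRNA over control siRNA (vertical axis) for each tested gene of the 5 lists, ordered within each list and coloured by call. ITGB2 at −6.08 is the lowest point and LTBP1 at 3.67 the highest, and no gene of the other integrin chains or of the tail binders is marked as rising.

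Genes whose level over the 6 libraries ran most like that of ITGB2 and of ITGB1 were sought among the 10481 genes whose mean level reached 5 CPM, by Pearson's r of log2(CPM + 0.5). For ITGB2 they were PHACTR2 (r = 0.999), FAM107B (r = 0.999) and NACAD (r = 0.998). All 3 were low in control replicate 1, with PHACTR2 at 48.9 CPM there against 116 and 110 CPM in control replicates 2 and 3 and 33.6 to 37.0 CPM after MK5 siRNA. For ITGB1 they were HBP1, IKZF2 and UBE4B (each r = 0.999). HBP1, a transcriptional repressor, was at 50.4, 56.4 and 46.8 CPM in the controls and at 162, 144 and 144 CPM after MK5 siRNA. With 6 libraries in 2 groups, any gene that parts the groups with little spread gives a high r with ITGB1. For ITGB2, an r this high also takes a low control replicate 1. These values are descriptions of likeness.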

How the data were processed

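Counts per gene in 6 libraries were taken as the authors deposited them. The table is named for CPM, but its values are whole-number counts that sum to different totals. Tools listed in the submitters' processing notes are Trimmomatic 0.36, TopHat2 2.1.1, HTSeq 0.9.1 and FastQC, with build GRCh37. Annotation release and strand setting: not given in the sources used here. Genes were kept with edgeR's filterByExpr (least count 10, least total 15), scaled by TMM and tested with the quasi-likelihood test of edgeR 4.0.16 in R 4.3.3, without a block. A check on simulated counts concerned the recovery of set fold changes and not the rate of false calls in these data. Alternatives used DESeq2 1.42.0, limma 3.58.1, other scalings and filters, a replicate block and fewer libraries. The groups share replicate numbers, and the 2 libraries that share number 1, 2 or 3 deviated together from their group means (r = 0.258, 0.206 and 0.248). On that measure, which comes from the data and not from the labels, libraries were treated as paired by number in the block. Replicate 2 of one group correlated with replicate 3 of the other nearly as well, at 0.151 and 0.182.

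The members and lists were chosen with earlier results of these data known. Named genes are the 10 chains, MAPKAPK5, every other tested integrin chain, the 4 passing genes with the largest change in each partner list and the 3 genes most like ITGB2 and like the chain with the largest rise. Further genes of the lists were named after their values were seen. Gene lengths and overlaps came from GENCODE 29 (GRCh38), matched by gene identifier for all 125 list entries, and promoters from RefSeq. GRCh38 differs from the submitters' build, so the promoter positions apply to RefSeq's build alone.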

Additional observations from a re-analysis of the deposited data

How the results depend on the processing

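ITGB1, ITGAV and ITGB2 kept their direction and their call in all 16 alternatives. ITGA1 passed in DESeq2 (0.47), with upper quartile scaling (0.48), on library totals alone (0.58), with the filter at a mean of 1 CPM (0.49), in limma with a pseudocount of 0.5 (0.48), with the replicate block (0.49), without control replicate 1 (0.62) and with replicates 2 and 3 alone (0.53). ITGA2 passed in DESeq2 (0.65), on library totals alone (0.79), without control replicate 1 (0.97) and with replicates 2 and 3 alone (1.13), as did ITGA3 in the last (0.15). With 1 library left out, ITGA1 lay between 0.33 and 0.62, ITGA2 between 0.50 and 0.97, ITGA3 between −0.045 and 0.19 (turning sign without control replicate 2, −0.045, and 3, −0.023) and ITGB5 between 0.39 and 0.58. ITGB6 lay between −0.49 and 0.062 with 1 library left out, turning sign without control replicate 3 (0.062) and MK5 siRNA replicate 1 (0.040).

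Rising chains numbered 5 in DESeq2 and on library totals alone, 6 with replicates 2 and 3 alone, and 2 to 5 with 1 library left out. Library totals alone moved the median of all genes to 0.104. Over all genes, 10372 of 13690 tested were called with replicates 2 and 3 alone, 5195 rising and 5177 falling. There, 1 other chain, 5 tail binders and 7 membrane partners rose and 9 ligands fell. Tail binders that rose numbered 1 in DESeq2, 2 on library totals alone and 2 with the replicate block. Ligands that fell numbered 6 in DESeq2 and 5 with the replicate block. Membrane partners that fell numbered 4 on library totals alone and 4 with no low-count filter. With 1 library left out, other chains that fell ranged from 2 to 5, tail binders that rose from 0 to 4, ligands that fell from 2 to 6, and membrane partners that rose from 3 to 6 and that fell from 2 to 7. In these fits the genes called over all genes tested ran from 4167, without MK5 siRNA replicate 2, to 8874, without control replicate 1. The 10 chains' summed level per kb, MK5 siRNA over control, was 1.44 and 1.54 on library totals alone. Among these 10 chains the replicate block changed the call of ITGA1 alone. The cause of these shifts was not tested. Depth limits ITGB2, ITGB3 and the leukocyte chains, which had few counts.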

Other observations

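ITGB1-DT, a noncoding gene whose annotation in GENCODE 29 shares 42 exon bases with ITGB1 on the opposite strand, had 20, 144 and 157 counts in control replicates 1, 2 and 3 and 20, 52 and 54 counts in the MK5 siRNA libraries. Its log2 fold change of −1.44 ± 0.71 did not pass (edgeR adjusted p = 0.141), and it ran low in replicate 1 of both groups. It was chosen after its values were seen. Among the markers of the retinal pigment epithelium, MITF, a pigment cell transcription factor, went from 51.0 to 58.7 CPM over the controls to 22.4 to 29.1 CPM after MK5 siRNA (−1.10 ± 0.14, edgeR adjusted p = 0.00114), and OTX2 lay at 29.6 to 34.7 CPM and 34.1 to 35.9 CPM (0.10 ± 0.11, edgeR adjusted p = 0.460). PMEL fell from 2.04 ± 0.323 to 0.546 ± 0.0938 CPM (−1.89 ± 0.27, edgeR adjusted p = 0.00189). Of the 5 markers of this list that were tested, 2 fell, beside 23.7% of all genes tested.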
